A study of Rattus norvegicus with 6 samples.

Results

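The complement genes C1qa, C1qb, C1qc, C1s, C3, Cfb, C3ar1, C5ar1 and Cd55 were followed in crushed rat sciatic nerve. They were chosen by gene symbol as complement components, receptors and a regulator, and are 9 of the 30957 genes listed in the gene expression table. All 9 were among the 15195 genes abundant enough to be tested. RNA sequencing was performed on the sciatic nerve of Sprague-Dawley rats 1 month old, with 2 rats in each of 3 groups: control, 4 days after crush (D4) and 7 days after crush (D7). In D4 and D7 the left nerve was exposed and its middle segment clamped with forceps, while the labels call the controls normal and the study's methods describe the same surgery without the clamp. The nerve was sequenced as whole tissue, so a change in the number of cells of a type and a change in RNA per cell cannot be told apart.

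Complement is a cascade of plasma and tissue proteins that tags debris and microbes for removal. In the classical pathway, C1q, built of A, B and C chains, binds a target with the proteases C1r and C1s attached. C1r activates C1s, C1s cleaves C4 and C2, and the resulting convertase cleaves C3. The alternative pathway amplifies the cleavage of C3 through factor B (Cfb) and factor D (Cfd), fragments C3a and C5a signal through C3ar1 and C5ar1, and Cd55 on the cell surface hastens the decay of the convertases. In a nerve undergoing Wallerian degeneration, macrophages clear myelin and axon debris, and complement is known to take part in recruiting and activating them.

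RefSeq promoters (assembly GRCr8, 250 bases before to 50 after the gene start) were matched for 5 of the 9 genes. Those of C1qa and C1qb are shown because these neighbouring genes both rose, and those of C3 and Cd55 because C3 was highest at D7 and Cd55 was lowest there. Capitals mark the matches to the 4 motifs searched on both strands.
C1qa, chr5:154419884-154420183, minus strand: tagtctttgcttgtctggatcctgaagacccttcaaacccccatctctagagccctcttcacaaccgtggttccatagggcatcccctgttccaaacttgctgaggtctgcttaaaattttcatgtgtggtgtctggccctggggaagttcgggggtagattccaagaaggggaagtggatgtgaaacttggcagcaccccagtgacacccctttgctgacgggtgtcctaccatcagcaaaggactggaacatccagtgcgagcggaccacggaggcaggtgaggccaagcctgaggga
C1qb, chr5:154407778-154408077, minus strand: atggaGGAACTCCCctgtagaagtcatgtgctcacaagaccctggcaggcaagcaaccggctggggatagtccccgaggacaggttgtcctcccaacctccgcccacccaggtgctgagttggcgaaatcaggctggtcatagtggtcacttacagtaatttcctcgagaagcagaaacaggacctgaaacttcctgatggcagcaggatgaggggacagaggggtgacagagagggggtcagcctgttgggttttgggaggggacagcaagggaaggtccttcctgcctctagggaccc
C3, chr9:2201290-2201589, minus strand: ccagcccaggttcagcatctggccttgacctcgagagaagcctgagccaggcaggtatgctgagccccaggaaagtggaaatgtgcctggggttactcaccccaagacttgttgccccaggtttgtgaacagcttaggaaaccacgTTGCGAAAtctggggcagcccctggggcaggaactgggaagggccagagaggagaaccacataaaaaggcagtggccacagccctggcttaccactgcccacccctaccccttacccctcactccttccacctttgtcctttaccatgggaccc
Cd55, chr13:44438052-44438351, minus strand: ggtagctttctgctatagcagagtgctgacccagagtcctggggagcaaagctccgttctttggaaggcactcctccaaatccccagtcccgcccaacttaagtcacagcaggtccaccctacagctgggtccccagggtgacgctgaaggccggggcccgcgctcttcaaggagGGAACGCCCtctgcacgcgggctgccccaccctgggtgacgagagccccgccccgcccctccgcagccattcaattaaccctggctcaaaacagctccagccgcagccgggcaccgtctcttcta
The capitals in C1qb and Cd55 match an NF-kB type motif, GGGNNTTCC, starting 245 and 75 bases before the gene start, and this motif was present in 5.92% of all 33469 promoters searched. The capitals in C3 match a C/EBP type motif, TTNNGCAA, starting 104 bases before the gene start, which was found in 10.6% of all promoters. The PU.1 type motif GAGGAAGT (2.42% of all promoters) and the IRF type motif GAAANNGAA (9.71%) had no match in the 5 windows. A match describes letters only and was not tested as a binding site.

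Sequencing depth was similar across the 6 libraries, with 18727255 to 25350886 fragments assigned to genes. Levels are given as counts scaled to library size with edgeR's TMM factors (CPM), and a gene was called changed at an adjusted p under 0.05 together with a change of at least 2-fold. At D4, 7 of the 9 genes were called higher and 0 lower, where 11.2% of all tested genes were called higher and 10.7% lower. At D7, 6 were called higher and 1 lower, beside 9.83% and 9.02% of all tested genes. The 9 genes were chosen with earlier results of these data known, so these counts are a description and not an independent test. Between D7 and D4 0 of the 9 were called by edgeR, while 1.68% of tested genes were called higher at D7 and 0.494% lower. An unadjusted edgeR p under 0.05 was found for 4 of the 9 and for 3754 of the 15195 tested genes. DESeq2 gave 7, 7 and 0 calls for the same 3 comparisons. When a change above 2-fold was itself tested (edgeR glmTreat), 6 of the 9 were called at D4, all but Cfb of the 7, and at D7 C1qa, C1qb and C3 were the 3 called. The median log2 fold change over the 9 genes was 1.96 at D4 and 1.55 at D7, against -0.04 and 0.01 over all tested genes. Both comparisons use the same control libraries and are therefore not independent. Without the TMM factors, the median of all genes moved from -0.04 to 0.25 at D4 and from 0.01 to 0.31 at D7, so the changes below are relative to the TMM scale.

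The 3 chains of C1q, the recognition molecule of the classical pathway, were several-fold higher in both crush groups. Their genes lie side by side on chromosome 5 of the Rnor_6.0 build used for the files, with C1qb at 155246447 to 155252003, C1qc at 155255005 to 155258392 and C1qa at 155261250 to 155264143. C1qa was at 31.5 and 22.1 CPM in the control libraries, 135 and 148 CPM at D4, and 91.5 and 125 CPM at D7. C1qb was at 23.6 and 21.2 CPM in control, 116 and 126 CPM at D4, and 71.9 and 89.8 CPM at D7. C1qc was at 59.3 and 38.8 CPM in control, 172 and 209 CPM at D4, and 118 and 166 CPM at D7. For each chain both crush groups lay above both control libraries, and D7 lay between control and D4 without overlapping either.

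On the log2 scale C1qa rose by 2.40 ± 0.22 (SE, n = 2 against 2) at D4 (edgeR adjusted p = 0.000579) and by 2.02 ± 0.22 at D7 (edgeR adjusted p = 0.00142). C1qb rose by 2.43 ± 0.14 at D4 and 1.85 ± 0.14 at D7, with edgeR adjusted p = 0.000172 and 0.000524. C1qc, the chain with the widest spread between libraries, rose by 1.96 ± 0.26 and 1.53 ± 0.26 (edgeR adjusted p = 0.00204 and 0.00622). The step from D4 to D7 did not pass for any chain: C1qa -0.38 with a 95% interval of -0.90 to 0.13, C1qb -0.58 (-0.91 to -0.25, edgeR adjusted p = 0.0694) and C1qc -0.42 (-1.03 to 0.19).

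**Figure D1:**
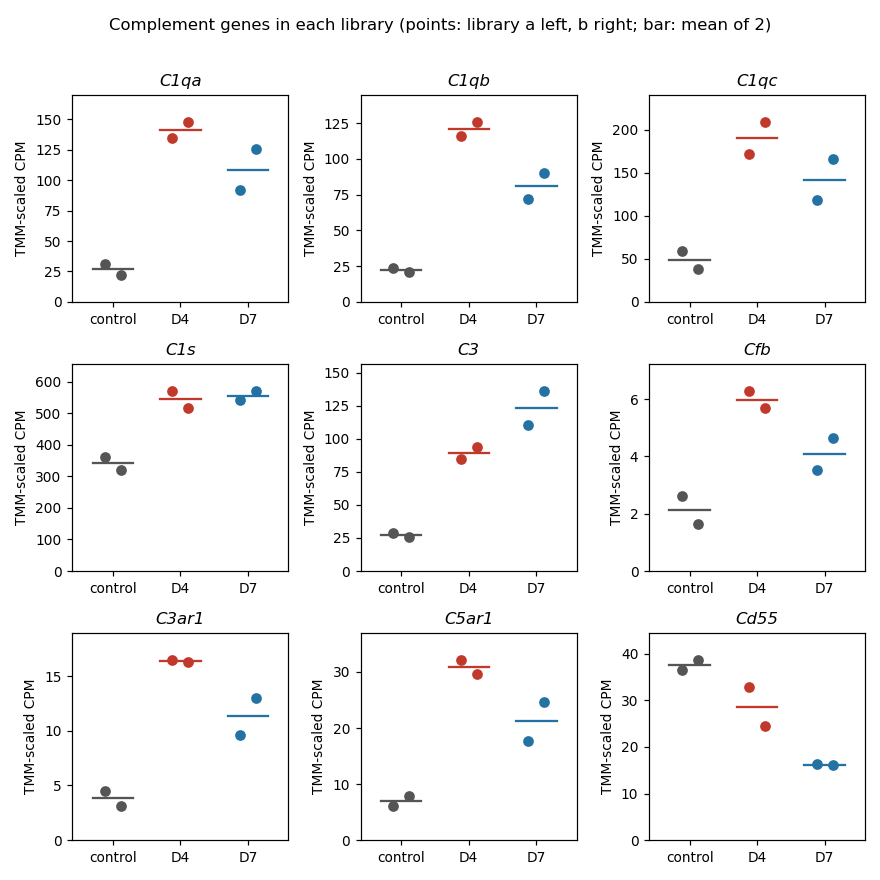
Level of each of the 9 genes in TMM-scaled CPM (vertical axis from 0) in the control, D4 and D7 groups, with each point 1 library and each bar the mean of 2. The C1q chains, C3ar1 and C5ar1 were highest at D4, C3 was highest in both D7 libraries, and Cd55 was lowest there.

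The balance of the chains was compared per transcript length, as FPKM. Chain A made up 28.3% and 27.6% of the summed FPKM of the 3 chains in the control libraries, 32.7% and 31.4% at D4, and 33.3% and 33.7% at D7. The share of chain C ran the other way, at 51.2% and 46.7% in control, 40.1% and 42.8% at D4, and 41.3% and 43.0% at D7. Chain B held 20.5% and 25.7% in control and 23.4% to 27.2% after crush, with overlapping groups. These shares were not tested.

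C1s, the protease of the C1 complex that cleaves C4 and C2 (chromosome 4, 157143592 to 157155609), stayed under the 2-fold requirement. Its level was 361 and 322 CPM in control, 571 and 518 CPM at D4, and 542 and 571 CPM at D7. The 4 crush libraries lay above both controls and overlapped each other. The difference was 0.67 ± 0.11 on the log2 scale at D4 and 0.70 ± 0.11 at D7 (edgeR adjusted p = 0.00414 and 0.00452), and it was 0.03 between D7 and D4 with a 95% interval of -0.23 to 0.29. C1r, its partner protease, was at 0.59 and 0.58, also under 2-fold (edgeR adjusted p = 0.00973 and 0.0123). Without TMM scaling C1s just passed the 2-fold line at D7 and was called.

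C3, the central component on which all pathways converge, was highest at D7. It was at 28.5 and 25.5 CPM in control, 84.9 and 94.1 CPM at D4, and 110 and 136 CPM at D7. Both D7 libraries lay above both D4 libraries, in contrast to the C1q chains. C3 rose by 1.73 ± 0.14 on the log2 scale at D4 and 2.19 ± 0.14 at D7 (edgeR adjusted p = 0.000361 and 0.000375). The D7 against D4 difference was 0.46 ± 0.13, with a 95% interval of 0.14 to 0.78, and did not pass the correction (edgeR adjusted p = 0.105). The gene spans 9721105 to 9747167 on chromosome 9.

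Cfb, the protease subunit of the alternative pathway convertase, had few counts assigned to it throughout. Its counts were 51 and 27 in control, 153 and 154 at D4, and 75 and 94 at D7, or 2.63 and 1.63, 6.28 and 5.69, and 3.52 and 4.65 CPM. The 3 groups did not overlap and D4 was highest. The rise at D4 was 1.48 ± 0.31 on the log2 scale (edgeR adjusted p = 0.0107), and D7 was at 0.93 ± 0.31 (edgeR adjusted p = 0.0594). The D4 call was lost without D4 library a (log2 1.41, edgeR adjusted p = 0.0649) and without D4 library b (1.55, edgeR adjusted p = 0.0506), and D7 was called without control library a (1.32) and without TMM scaling (1.23). Its annotated span on chromosome 20 (4536263 to 4561062) overlaps both rows named C2, and fragments may have been divided among them, so the Cfb level is uncertain.

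The receptors of the small complement fragments rose at both times. C3ar1, the receptor of C3a (chromosome 4, 155684029 to 155690869), was at 4.53 and 3.14 CPM in control, 16.5 and 16.3 CPM at D4, and 9.63 and 13.0 CPM at D7. C5ar1, which binds C5a (chromosome 1, 78186776 to 78195328), was at 6.03 and 7.96 CPM in control, 32.1 and 29.6 CPM at D4, and 17.7 and 24.7 CPM at D7. For both receptors D4 was highest and the 3 groups did not overlap. C3ar1 rose by 2.09 ± 0.24 and 1.55 ± 0.24 on the log2 scale at D4 and D7 (edgeR adjusted p = 0.00129 and 0.00498). The rise of C5ar1 was 2.14 ± 0.22 and 1.60 ± 0.22 (edgeR adjusted p = 0.000767 and 0.00296). Between D7 and D4 the differences were -0.53 (95% interval -1.09 to 0.02) and -0.54 (-1.04 to -0.05), neither past the correction. C5 itself, the source of C5a, had at most 3 counts in any library.

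Cd55, the membrane inhibitor, was the 1 gene of the 9 called lower. It was at 36.5 and 38.6 CPM in control, 32.8 and 24.5 CPM at D4, and 16.3 and 16.0 CPM at D7. The groups did not overlap and the order was control, D4, D7. Its log2 difference was -0.39 ± 0.15 at D4 (edgeR adjusted p = 0.0859) and -1.21 ± 0.16 at D7 (edgeR adjusted p = 0.00263). D7 was below D4 by -0.82 ± 0.16 (edgeR adjusted p = 0.0453), which is under 2-fold. The D7 call held whichever single library was left out, and was lost without TMM scaling, where the value was -0.92. Cd55 spans 47126741 to 47154292 on chromosome 13.

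**Figure D2:**
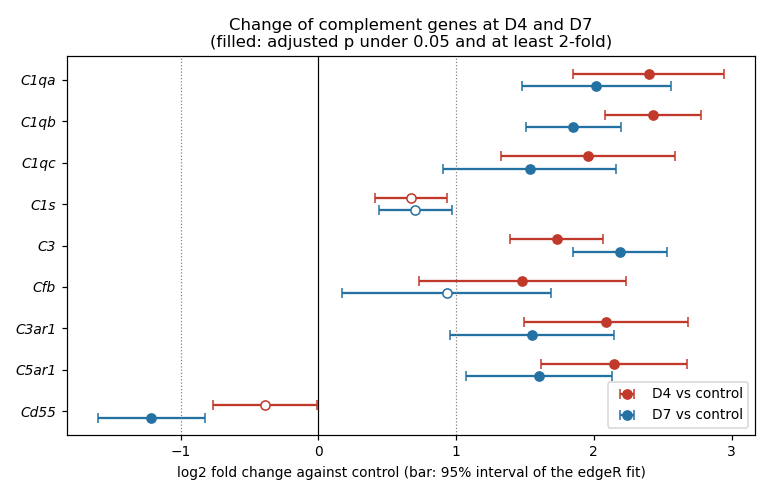
Log2 fold change against control (horizontal axis) of the 9 genes at D4 and D7, with bars for the 95% interval of the edgeR fit and filled points for called changes. C1s lies at 0.67 and 0.70, inside the dotted 2-fold lines, and Cd55 at D7 is the filled point left of 0.

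Compared by FPKM, which corrects for transcript length, C1s was the most abundant of the 9 in control nerve at 69.4 ± 4.40 (SD, n = 2). It was followed by C1qc at 39.2 ± 10.9, C1qa at 22.3 ± 5.16, C1qb at 18.1 ± 1.10, Cd55 at 10.6 ± 0.598 and C3 at 4.18 ± 0.253. C5ar1 (3.14), C3ar1 (1.65) and Cfb (0.532) were lowest, and of all neighbours in this order only C1qa and C1qb overlapped. At D4 the order began with C1qc at 186 ± 26.4, C1qa at 144 ± 9.71 and C1s at 135 ± 9.07, the last pair overlapping. Cd55, at 9.88 ± 2.00, then lay below C3 (16.9 ± 1.25) and C5ar1 (16.9 ± 0.947), which overlapped each other, and overlapped C3ar1. At D7, C1qc (140 ± 35.0) and C1s (139 ± 6.51) overlapped at the top, and C3 reached 23.4 ± 3.67. Cd55 was then at 5.61 ± 0.0191 beside C3ar1 at 6.002 ± 1.33. Cfb was again lowest at 1.26 ± 0.258, a level left uncertain by its overlap with the C2 rows.

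Macrophage markers moved in the same libraries. All 10 genes of a macrophage and monocyte list were called higher at D4 and 8 at D7, and their summed level was 382 and 340 CPM in control, 1210 and 1162 CPM at D4, and 760 and 944 CPM at D7. Set against that sum, C1qa amounted to 8.23% and 6.49% in control, 11.1% and 12.7% at D4, and 12.05% and 13.3% at D7. C1qb amounted to 6.18% and 6.22% in control and 9.46% to 10.8% after crush, whereas C1qc, at 15.5% and 11.4% in control, 14.2% and 18.0% at D4, and 15.5% and 17.6% at D7, overlapped between control and D4. C3 amounted to 7.45% and 7.50% in control, 7.02% and 8.10% at D4, and 14.5% and 14.4% at D7. The 4 control and D4 values of C3 lay close together and both D7 values were above them. C3ar1 was at 1.19% and 0.922% of the macrophage sum in control and 1.27% to 1.41% after crush. C5ar1 was at 1.58% and 2.34% in control and 2.33% to 2.65% after crush, where control and D7 overlapped. C1s was at 94.3% and 94.6% of that sum in control, 47.2% and 44.6% at D4, and 71.3% and 60.5% at D7. Cd55 was at 9.55% and 11.3% in control, against 1.70% to 2.71% after crush. Csf1r, Mrc1 and Cd163 had the highest mean CPM of the 10 markers in each group and weigh most in the sum. Fold rises of the 10 ran from 2.73 (Adgre1) to 7.55 (Cd68) at D4. At D7 they ran from 1.58 (Cd163) to 7.22 (Cd68). C3 rose 3.31- and 4.56-fold and C1qa 5.27- and 4.05-fold, so the direction of such a ratio depends on the marker used. These ratios were not tested, and the part of cell number in the changes was not tested.

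**Figure D3:**
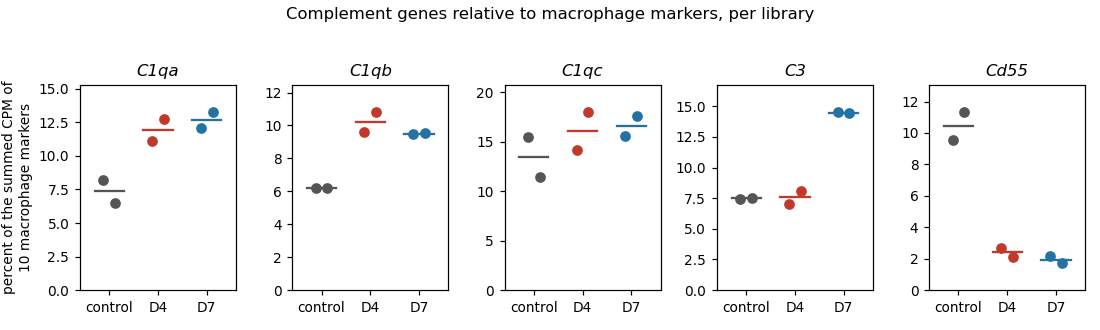
C1qa, C1qb, C1qc, C3 and Cd55 as percent of the summed CPM of 10 macrophage markers (vertical axes from 0), with each point 1 library and each bar the mean of 2. C3 stood at 7.02% to 8.10% in control and D4 and at 14.5% and 14.4% at D7, and Cd55 was at 2.71% or less after crush.

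Other cell types were checked with marker lists. The Schwann cell list, which includes the myelin genes, summed to 105030 and 72015 CPM in control, 7881 and 8691 CPM at D4, and 21355 and 14376 CPM at D7, with 5 of 9 genes called lower and 2 higher at D4 (4 and 2 at D7). Neutrophil markers summed to 18.0 to 56.7 CPM, with Elane at 0 and S100a8 and S100a9 below 0.5 CPM in every library, and of 6 genes Csf3r was called higher at both times and Cxcr2 lower at D4. T and B lymphocyte markers summed to 0.784 to 6.34 CPM and were highest at D7. The fibroblast sum was 28073 and 29489 CPM in control and 13937 and 15684 CPM at D7, where 1 of 6 genes, Col1a1, was called lower. Col1a1 made up most of it, with 24900 and 26451 CPM in control and 11662 and 13124 CPM at D7. At D7 the other fibroblast genes ranged from -1.54 (Dpt) to 0.49 (Pdgfra) on the log2 scale. The endothelial sum was 789 and 1417 CPM in control and 254 and 455 CPM at D7, where 4 of 4 genes were called lower. Skeletal muscle markers (3 genes) summed to 3.91 to 41.7 CPM and hepatocyte markers to 0.704 to 7.62 CPM.

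The rest of the system was read from a list of 50 complement symbols, also chosen with earlier results of these data known. It gave 52 rows because C2 and C4a each have 2 gene IDs. Of these, 40 were tested. At D4, 19 were called higher and 4 lower, beside 11.2% and 10.7% of all tested genes. At D7, 17 were called higher and 4 lower, beside 9.83% and 9.02%, so the count of decreases was near the background at both times. Between D7 and D4 0 were called higher and 1 lower. With at least 10 counts required in every library, 19 of the 23 calls at D4 and 17 of the 21 at D7 remained. Fcnb, Cr2, Vsig4 and Cfi dropped out at both times. The median log2 fold change of the list was 0.87 at D4 and 0.74 at D7, and these medians were the same with genes undetected in control set at their lower bound. Of the 31 tested rows other than the 9 genes, 12 were called higher and 4 lower at D4, and 11 and 3 at D7.

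**Figure D4:**
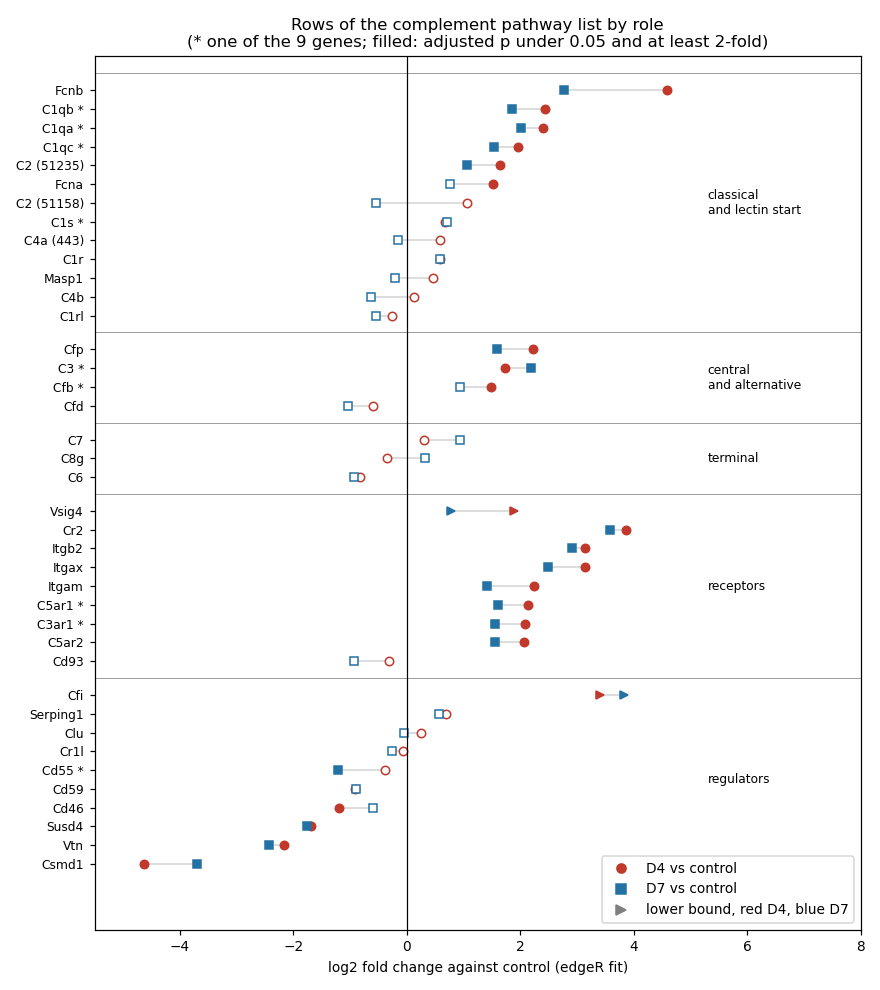
Log2 fold change against control (horizontal axis) of 39 of the 40 tested rows, grouped by role, with circles for D4, squares for D7, filled symbols for called changes and triangles for lower bounds. Of 9 receptors 8 are filled on the right at both times, no terminal component is filled, and the regulators hold all called decreases.

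Of the 9 receptors, 8 were called higher at both D4 and D7, beside 11.2% and 9.83% of all tested genes. Of these 8, Cr2 and Vsig4 had at most 5 counts in a control library. Neither was called when at least 10 counts in every library were required. Itgam, which pairs with Itgb2 to form complement receptor 3, was at 14.99 and 17.4 CPM in control, 74.5 and 78.3 CPM at D4 and 38.4 and 47.8 CPM at D7. Its log2 changes were 2.24 and 1.42, and D7 was below D4 by -0.82 (edgeR adjusted p = 0.0349), under 2-fold. Itgb2, the shared beta chain, rose by 3.15 and 2.91. Itgax, the alpha chain of complement receptor 4, rose by 3.14 and 2.49, or by 3.88 and 3.22 without control library a. The annotated span of Itgax lies inside that of Itgam, and fragments may have been divided between them, so both levels are uncertain. C5ar2, the other C5a receptor, rose by 2.06 and 1.55. Cr2, a receptor for C3 breakdown fragments on B cells, had 0 and 5 counts in control against 51 and 59 at D4 and 46 and 27 at D7 (3.86 and 3.58). Without control library a these values were 2.80 and 2.51, and without control library b the remaining control held 0 counts. The Cr2 call at D4 was lost without either D4 library (edgeR adjusted p = 0.0632 without a, 0.0670 without b), and at D7 without D7 library a (0.0837) or either D4 library (0.0595 and 0.0596). Vsig4, a C3b receptor of resident macrophages, had 0 counts in control, 16 and 16 at D4 and 6 and 6 at D7. Against a floor of 3 counts per control library the rise was at least 3.72-fold at D4, and the bound at D7 was 1.73-fold. Its D7 call was lost when any 1 of the 6 libraries was left out, with edgeR adjusted p from 0.0556 to 0.0710. Cd93, a membrane protein of endothelium and myeloid cells, was at -0.31 and -0.93 and was not called.

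Among the starters of the cascade, Fcnb, a ficolin that recognises sugars, had 3 and 6 counts in control, 148 and 169 at D4, and 31 and 42 at D7. It rose by 4.58 at D4 and 2.78 at D7, or by 5.27 and 3.46 without control library b. It was the 1 gene of the list called lower at D7 than at D4, by -1.80 ± 0.34 (edgeR adjusted p = 0.0446), and this call was lost without any D4 or D7 library, at values from -2.08 to -1.57. Fcna, a related ficolin, was at 15.9 and 15.1 CPM in control, 47.7 and 41.6 CPM at D4, and 16.7 and 36.3 CPM at D7. It rose by 1.53 at D4, a call lost without any single control or D4 library (edgeR adjusted p from 0.0525 to 0.0733). The row C2 ENSRNOG00000051235, a convertase subunit, rose by 1.65 at D4 and 1.06 at D7. Its D4 call was lost without D4 library a (log2 1.41, edgeR adjusted p = 0.0563). Its D7 call was lost without each library except control a, with log2 values from 0.69 to 1.31. The other C2 row, ENSRNOG00000051158, was not called, at 1.05 at D4 and -0.55 at D7 (edgeR adjusted p = 0.225 and 0.532). Both C2 rows overlap the annotated span of Cfb, so their levels are uncertain.

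Cfp, or properdin, which stabilises the alternative convertase, rose from 12.7 and 10.3 CPM to 51.9 and 56.1 CPM at D4 and 30.1 and 39.5 CPM at D7, log2 changes of 2.23 and 1.60. Of the terminal components that build the membrane attack complex, 3 of 7 were tested and 0 called by edgeR or DESeq2. In edgeR 0 at D4 and 1 at D7 had an unadjusted p under 0.05. Over all 15195 tested genes, 8088 and 7361 had one. C7 was at 78.7 and 149 CPM in control, 146 and 133 CPM at D4, and 223 and 211 CPM at D7, where the log2 difference of 0.93 (edgeR adjusted p = 0.0421) was under 2-fold, and it was called without control library b (1.46) and without TMM scaling (1.22). C8a, C8b and C9 had 0 counts in every library, as did the lectins Mbl1, Mbl2 and Colec10.

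Of the 11 tested regulators, 2 were called higher and 4 lower at each time, beside 11.2% higher and 10.7% lower of all tested genes at D4 and 9.83% and 9.02% at D7. Cfi, the protease that inactivates C3b and C4b, had 0 counts in both controls, 43 and 49 at D4, and 32 and 66 at D7. Against 3 counts per control library, the rise was at least 10.7-fold at D4 and at least 14.2-fold at D7, where library a alone gave 8.96-fold. Serping1, the C1 inhibitor, was at 0.69 and 0.56, under 2-fold.

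On the membrane side, Cd59, which blocks the attack complex, was at 186 and 186 CPM in control, 103 and 95.8 CPM at D4, and 99.9 and 100.2 CPM at D7. Its log2 differences were -0.91 and -0.89 (edgeR adjusted p = 0.000565 and 0.000906), under 2-fold. Cd46, a cofactor for cleavage of C3b, was called lower at D4 (-1.20) and not at D7 (-0.59). This call was lost without control library b or either D4 library, with edgeR adjusted p from 0.0719 to 0.116, and without TMM scaling at -0.91. Csmd1, a large membrane inhibitor, was at 31.6 and 31.7 CPM in control, 1.11 and 1.44 CPM at D4, and 3.38 and 1.48 CPM at D7, with log2 changes of -4.62 and -3.69 (-4.38 at D7 without D7 library a). Vtn, or vitronectin, which binds the terminal complex, changed by -2.16 and -2.43. Susd4, another membrane inhibitor, changed by -1.68 and -1.75, and its calls were lost without control library b (-1.17 and -1.24), without either D4 library (edgeR adjusted p from 0.0510 to 0.148) and at D7 without D7 library a (-1.28). Its D7 value was -2.38 without D7 library b. Cr1l, a rodent membrane regulator of C3 convertases, was at -0.07 and -0.25.

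The D7 libraries were at least 2-fold apart for some complement genes but for 0 of the 9. The ratio of D7 library b to a for the 9 ran from 0.981 (Cd55) to 1.41 (C1qc). Of the 40 tested rows, 9 were at least 2-fold apart between the D7 libraries, against 4 in control and 2 at D4, a row at 0 in 1 library counting as apart. Over all tested genes the shares were 7.47%, 8.63% and 4.89%. C4b, a substrate of C1s, was at 525 and 379 CPM in control, 671 and 319 CPM at D4, and 57.1 and 527 CPM at D7. Cfd, the protease that activates factor B, was at 45.6 CPM in D7 library a and 230 CPM in b, and C6 at 9.02 and 45.9 CPM. The row C2 ENSRNOG00000051158 was at 19.6 CPM in D7 library a and 80.7 CPM in b. Adipocyte markers showed the same split, at 4.41 and 351 CPM summed over 4 genes at D7, against 1098 and 888 CPM in control and 252 and 123 CPM at D4. Cfd is itself abundant in fat, and the part of adipose tissue in these values was not tested. When D7 library b was left out, C4b, Cfd and Cd93 and this C2 row were called at D7, and without D7 library a Fcna was called, while the same 7 of the 9 genes were called either way. C4a and C4b are near-identical copies with overlapping spans, and their levels are uncertain.

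**Figure D5:**
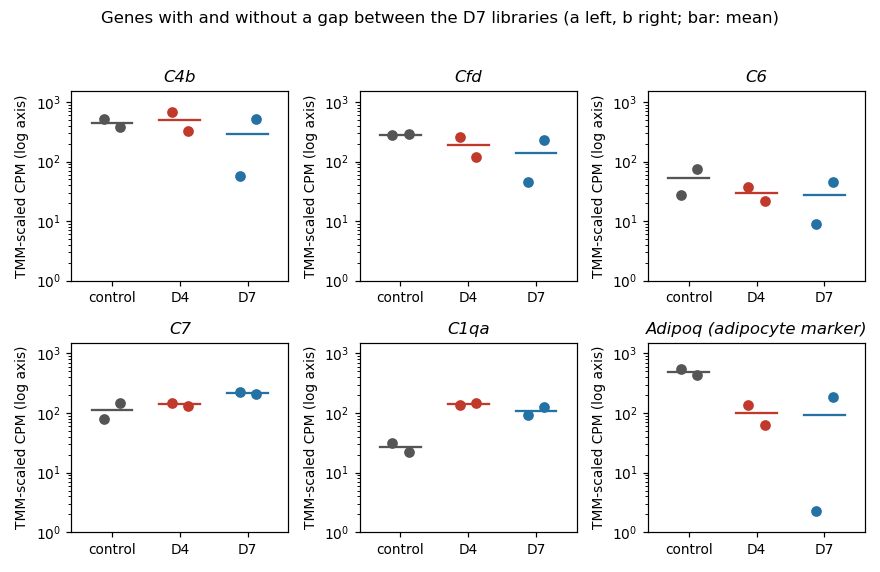
C4b, Cfd, C6, C7, C1qa and the adipocyte marker Adipoq in TMM-scaled CPM (log axis), with each point 1 library (a left, b right) and each bar the mean of 2. At D7 C4b was at 57.1 and 527 CPM and Adipoq at 2.30 and 185 CPM, while C1qa was at 91.5 and 125 CPM.

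Genes with the most similar profiles over the 6 libraries were listed for C1q, C3 and Cd55 among 13291 genes, as a description, since 6 libraries in 3 groups give high correlations for many genes. For the mean of the C1q chains they were Tlr9, an endosomal DNA sensor (r = 0.9996), AABR07026311.1 (0.9993) and Ugt1a8, a glucuronosyltransferase (0.9991). Tlr9 rose by 1.18 on the log2 scale at D4 and was at 0.96 at D7. For C3 they were Rpl7, a ribosomal protein (0.9989), RT1-Da, a class II antigen presentation chain (0.9986), and Caprin1 (0.9966). RT1-Da was at 50.1 and 44.5 CPM in control, 109 and 111 CPM at D4, and 134 and 148 CPM at D7. For Cd55 they were Ywhag, a 14-3-3 protein (0.9958), LOC681458 (0.9945) and Bok, a BCL2 family member (0.9944), which was at -0.36 at D4 and -1.47 at D7.

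Long noncoding RNAs were looked up within 10 kb of the 9 genes, and 8 transcripts were found, of which 4 were tested. By edgeR and by DESeq2 0 were called in the 3 comparisons, where edgeR called 10.1%, 5.79% and 0.249% of 14077 tested lncRNAs. In edgeR 0, 1 and 1 had an unadjusted p under 0.05, and the share of all lncRNAs at that cut was not computed. Among them NONRATT008674.2, which lies inside the Cd55 span, had 144 and 124 counts in control, 117 and 162 at D4, and 106 and 79 at D7. Its log2 difference was -0.11 at D4 and -0.63 at D7 (edgeR adjusted p = 0.801 and 0.176). The strand setting of the counting is not given in the sources used here, so reads from Cd55 and an overlapping lncRNA cannot be told apart. In the C1s span, NONRATT021835.2 had 2 to 14 counts per library.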

How the data were processed

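RNA from the sciatic nerve of 6 rats (2 per group, each its own library) was sequenced. According to the study's methods and the submitters' processing notes, the authors aligned reads to the Rnor_6.0 build with HISAT2 2.0.4 and assembled and counted them with StringTie 1.3.0. They deposited raw fragment counts and FPKM (fragments scaled by transcript length and library size) for genes and lncRNAs, of which the counts were tested and the deposited FPKM used only to compare levels between genes. The 9 genes, the pathway list and the marker lists were chosen with earlier results of these data known. Genes were filtered with filterByExpr, scaled by TMM and fitted in 1 quasi-likelihood model of all 6 libraries (edgeR 4.0.16, R 4.3.3) with Benjamini-Hochberg adjustment over all genes tested. Calls needed an adjusted p under 0.05 and at least 2-fold. The fit was tested on simulated data. Intervals are 95%, and a group at 0 was set at 3 counts per library. Named genes were the 9, the list genes called or at 0 throughout, and the 3 most correlated genes per profile (mean FPKM of at least 1). Others were named after their values were seen: C1r, Serping1, Cd59, C7, Cd93, C5, Cr1l and genes apart between the D7 libraries. C5 was matched by its older symbol Hc. Alternatives were DESeq2 1.42.0, other scaling, filters and thresholds, a replicate block, pairs of groups and each library left out. The individual values of 1 gene of the pathway list are not reported here.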

Additional observations from a re-analysis of the deposited data

Results flagged for a closer look

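The effects at the 2 times after crush differed by their own test for 3 genes of the pathway list. The cut was an edgeR adjusted p under 0.05 without a fold requirement. The share of all tested genes at that cut was not computed, and the comparison is D7 against D4 in each case. Fcnb was at -1.80 on the log2 scale (edgeR adjusted p = 0.0446), with 148 and 169 counts at D4 and 31 and 42 at D7. The Fcnb result was lost with a replicate block, with glmTreat and without any single D4 or D7 library. Itgam was at -0.82 (edgeR adjusted p = 0.0349), with both D7 libraries below both D4 libraries. The Itgam span contains that of Itgax, so the Itgam level is uncertain. Cd55 was at -0.82 (edgeR adjusted p = 0.0453), with 799 and 664 counts at D4 and 348 and 324 at D7. For Itgam and Cd55 the difference was under 2-fold.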

How the results depend on the processing

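With 2 libraries a group, precision is limited and each library carries much of a result. The calls of the 9 genes were 7 at D4 under most alternatives (6 to 7 without any 1 library) and 7 at D7 (7 to 8). When a change above 2-fold was itself tested (glmTreat), 3 of the 9 were called at D7 and 10 of the pathway list. For D7 against D4, without a fold requirement 1 of the 9 and 3 of the list were called, and the share of all tested genes was not computed. The list count there, 1, was 0 with glmTreat, 0 with at least 10 counts in every library, and 0 to 4 without any 1 library, the 4 arising without D7 library b. These 4 were C2 ENSRNOG00000051158, C4b, Fcna and Csmd1. The D7 against D4 value of C1s, 0.03, turned to -0.0044 with DESeq2 and with RLE factors, -0.037 without D4 library b and -0.0079 without D7 library b (range -0.037 to 0.10 without any 1 library), and was never called. Library letters mark different rats, and deviations of same-lettered libraries correlated at 0.01, 0.19 and -0.13 over 15195 genes, so the letters were not taken as pairs. With the letter as a replicate block, the 9 genes gave 7, 7 and 0 calls and the list 23, 21 and 0, and 1 call, that of Fcnb between D7 and D4, was lost. Over all alternatives of the single genes, 910 values kept direction and side of the threshold, 62 lost the call, 19 gained it and 4 changed sign.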
